A study of Mus musculus with 2 samples.

Results

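Genes of lung water and ion transport were compared between 2 pooled whole-lung RNA libraries of mice. The set holds 9 genes, chosen by symbol: the aquaporin genes Aqp1, Aqp3, Aqp4 and Aqp5, the genes Scnn1a, Scnn1b and Scnn1g for the subunits of the epithelial sodium channel (ENaC), Atp1b1 for a beta subunit of the sodium pump, and Cftr for the cystic fibrosis chloride channel. All 9 were found among the 22072 genes of the deposited tables, each with 1 RefSeq transcript. The control pool came from lungs of mice homozygous for floxed Foxf1 alleles (genotype Foxf1 fl/fl). The knockout pool came from mice with the same floxed alleles that also carried Pdgfb-iCreER, an inducible Cre recombinase driven from the endothelial gene Pdgfb. Both were on the background given as C57/BL6. The sources used here do not give the number, sex or age of the mice, the induction schedule or the deleted part of Foxf1. The control mice had no Cre, so effects of Cre itself and of Foxf1 loss cannot be told apart. Per the series title, the study concerned the transcription factor FOXF1 and the endothelial barrier of the lung, and the genes compared here move the fluid that such a barrier holds back.

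Alveolar air spaces are kept nearly dry by active salt transport. Sodium enters the alveolar epithelial cell through ENaC at the surface that faces the air, the sodium pump drives it out on the other side, chloride follows in part through CFTR, and water follows by osmosis. Aquaporins are water channels of cell membranes: AQP1 is known from the capillary endothelium of the lung, AQP5 from the apical membrane of alveolar type 1 cells and from glands, and AQP3 and AQP4 from the basolateral membranes of airway epithelium.

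Values are FPKM, fragment counts divided by transcript length and by library depth, so levels of different genes can be set side by side. Each genotype had 1 library, so no difference below has a replicate check and no p-value was computed. Estimated from the deposited coverage, transcripts received about 13.6 M reads in the control library and 10.6 M in the other. Ranges in brackets are 95% intervals for counting error in these reads and leave out all differences between mice, pools and library preparations. The targeted gene, listed as Foxf1a, had 72.1 FPKM in control lungs and 15.7 in knockout lungs, 4.59-fold lower (3.97 to 5.33). Of the markers of lung tissue, the alveolar type 2 gene Sftpc stood at 15925 and 13793 FPKM and the alveolar type 1 gene Ager at 1218 and 1086 FPKM. In whole-lung RNA, fewer cells of a type and less RNA per cell cannot be told apart.

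The start regions of 7 of the 9 genes were taken from RefSeq (GRCm38.p6). Those of Aqp4 and Scnn1a were not examined, so the counts below say nothing about them. Sequences of the 250 bases before the start, written 5′ to 3′ on the gene's strand, are shown for the 2 abundant aquaporin genes, as the base of the water channel results, and for Atp1b1, the abundant gene of the set that lay farthest from equality. Capitals mark GC boxes (GGGCGG, or CCGCCC on the other strand), the element bound by SP1-type factors.
Aqp1: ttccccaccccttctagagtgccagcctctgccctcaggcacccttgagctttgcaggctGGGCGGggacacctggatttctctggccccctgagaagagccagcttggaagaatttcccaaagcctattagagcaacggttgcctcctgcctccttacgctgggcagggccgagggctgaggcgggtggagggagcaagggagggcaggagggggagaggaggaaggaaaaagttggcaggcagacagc
Aqp5: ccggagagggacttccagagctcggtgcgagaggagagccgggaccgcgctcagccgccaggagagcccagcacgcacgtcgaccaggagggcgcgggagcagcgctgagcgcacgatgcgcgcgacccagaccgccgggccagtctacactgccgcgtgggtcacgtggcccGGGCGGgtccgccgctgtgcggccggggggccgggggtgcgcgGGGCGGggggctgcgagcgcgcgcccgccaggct
Atp1b1: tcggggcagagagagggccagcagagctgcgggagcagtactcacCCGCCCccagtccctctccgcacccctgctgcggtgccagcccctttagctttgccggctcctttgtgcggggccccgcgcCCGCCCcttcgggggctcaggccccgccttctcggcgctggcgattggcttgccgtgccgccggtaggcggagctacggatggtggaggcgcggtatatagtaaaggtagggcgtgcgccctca
They lie at chr6:55336049-55336298 on the plus strand for Aqp1, chr15:99590778-99591027 on the plus strand for Aqp5, and chr1:164458356-164458605 on the minus strand for Atp1b1. The Aqp5 region was the richest in G and C, at 78.4%, against 70.4% for Atp1b1, 62% for Aqp1 and a median of 52.4% over 32851 start regions of the same length. GC boxes were found in 7 of the 7 genes examined, with overlapping matches counted, and in 32.7% of all start regions. The forkhead heptamers GTAAACA and ATAAACA, searched on both strands (TGTTTAC and TGTTTAT), were found in 0 of the 7 and in 7.1% of all start regions, so these letters do not occur in these windows. The letters TATAAA on the gene's strand were found in Aqp3 alone, and in 7.59% of all. Variants of these letters were not searched, so the other regions may still hold such an element.

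Between the pools, Cftr was 1.62-fold lower (1.28 to 2.04) and Atp1b1 1.28-fold lower (1.23 to 1.33) in knockout lungs, while the abundant aquaporin and ENaC genes differed by at most 1.13-fold. Of the 9 genes, 7 had a mean FPKM of 1 or more, and 0 of these 7 differed by 1.5-fold or more on the log2(FPKM + 1) scale, a scale that understates differences of low genes. Over all 12929 genes past the same floor, 9.41% were higher in knockout lungs by 1.5-fold or more and 4.63% were lower by as much, 14.0% in all, so a count of 0 among 7 genes is near that share and says nothing particular to the set. The median log2 ratio, knockout minus control on that scale, was -0.07 for the 7 genes and 0.05 for all genes. With a pseudocount of 0.1 in place of 1, Cftr passed 1.5-fold. The counting interval of the ratio lay above 1 for Aqp5 and below 1 for Scnn1a, Scnn1b, Atp1b1 and Cftr, that is for 1 and 4 of the 7 genes. Among all genes it lay above 1 for 33.6% and below 1 for 22.1%, so an interval away from 1 was common at this depth. Relative to the median gene, which was 1.04-fold higher in knockout lungs, the interval of Aqp5 held equality (0.979 to 1.07) and that of Aqp1 lay below it (0.916 to 0.965).

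**Figure D1:**
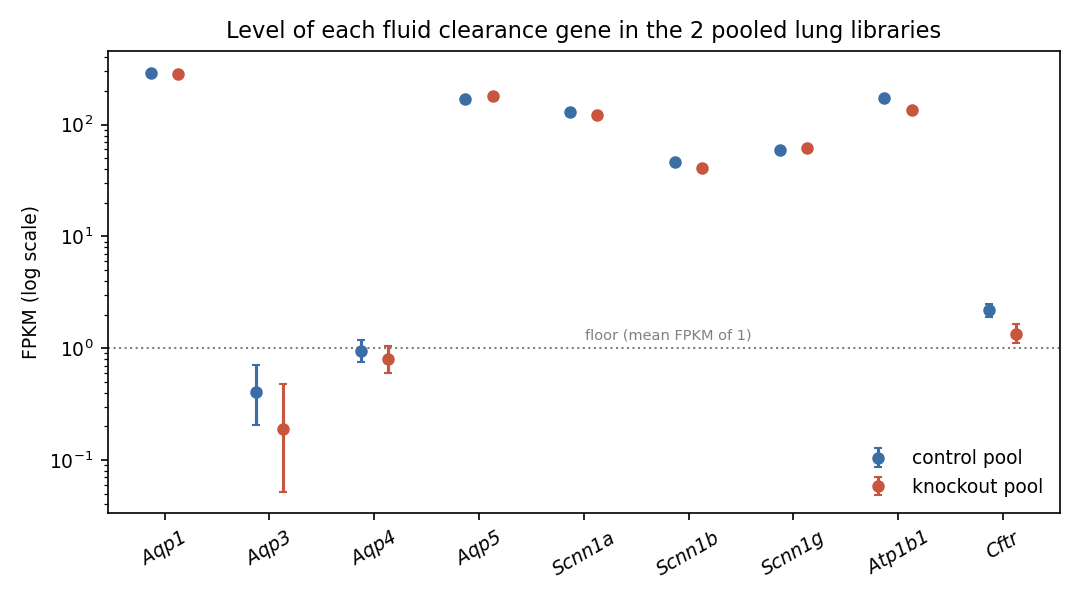
FPKM (log scale) of each of the 9 genes in control lungs and the knockout pool, 1 library each, with bars for the 95% counting interval of each value and a dotted line at an FPKM of 1. Aqp1 was the most abundant in both pools (292 and 287 FPKM), and Aqp3 and Aqp4 lay under the dotted line in both.

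The order of the levels in control lungs, from the highest, was Aqp1, Atp1b1, Aqp5, Scnn1a, Scnn1g, Scnn1b, Cftr, Aqp4 and Aqp3. In knockout lungs Aqp5 and Atp1b1 had changed places and the order was otherwise the same. Counting intervals of neighbours in the order overlapped only for Atp1b1 and Aqp5 in control lungs, and whether the other neighbours differ beyond the spread between mice cannot be seen with 1 library each.

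Among the water channels, Aqp1 was the most abundant, with 292 FPKM in control lungs and 287 in knockout lungs. It ranked 155 and 158 among the 22072 genes. The pools differed by 1.02-fold, and the interval of the fold held equality (0.993 to 1.05, control over knockout). Its transcript lies on chromosome 6 from 55286293 to 55298549 (mm9, as are all positions from here on). Aqp5 had 169 FPKM in control lungs and 180 in knockout lungs, and was 1.07-fold higher (1.02 to 1.12). Its transcript lies on chromosome 15 from 99421459 to 99425260, between those of Aqp2 and Aqp6, the kidney water channel and a related gene of the same cluster. Neither neighbour, named for its position, shared its level: Aqp2 had 0.15 and 0.065 FPKM, and Aqp6 was listed at 0 in both pools.

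The other 2 aquaporin genes of the set were barely detected. Aqp4 had 0.954 FPKM in control lungs and 0.799 in knockout lungs, from about 82 and 53 reads, and the interval of its fold held equality (0.833 to 1.71, control over knockout). Aqp3 had 0.402 and 0.188 FPKM, from about 12 and 4 reads. Its plain fold was 2.14, control over knockout, with an interval from 0.70 to 9.82, so a difference of Aqp3 was not detectable at this depth. Markers of airway basal cells, where AQP3 is known, were as scarce: 0 of 5 reached a mean FPKM of 1, the list summed to 0.452 FPKM in control lungs and 0.720 in knockout lungs, and Krt5 was listed at 0 in both.

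Of the 8 further genes of the aquaporin family, 1 reached a mean FPKM of 1. This was Aqp11, which encodes a channel of intracellular membranes, with 1.76 and 2.27 FPKM and an interval of the ratio from 0.812 to 2.08. The next was Aqp9, a water and glycerol channel of liver and leukocytes, with 0.173 FPKM in control lungs and 0.567 in knockout lungs, from about 8 and 20 reads. The 12 aquaporin genes summed to 465 FPKM in control lungs and 471 in knockout lungs. Aqp1 took 62.9% and 60.9% of these sums and Aqp5 36.3% and 38.2%. Within a library the ratio of 2 genes does not depend on how the library was scaled. Aqp1 stood at 1.73 times Aqp5 in control lungs (1.68 to 1.79) and at 1.59 times in knockout lungs (1.53 to 1.66). The ratio was thus 1.09-fold lower in knockout lungs (1.03 to 1.15).

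The sodium channel genes kept their order, alpha above gamma above beta, in both pools. Scnn1a encodes the alpha subunit, which the channel needs to conduct, and had 129 FPKM in control lungs and 123 in knockout lungs, 1.05-fold lower (1.01 to 1.08). Scnn1g, for the gamma subunit, had 59.4 and 61.5 FPKM, with an interval of the ratio that held equality (0.981 to 1.09). Scnn1b, for the beta subunit, had 46.4 and 41.1 FPKM, 1.13-fold lower (1.05 to 1.21). Summed over the subunits the channel had 235 FPKM in control lungs and 226 in knockout lungs.

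The share of each subunit in that sum was close between the pools. Scnn1a took 55.0% in control lungs and 54.6% in knockout lungs, Scnn1g 25.3% and 27.2%, and Scnn1b 19.8% and 18.2%. The ratio of Scnn1g to Scnn1b differed most: it was 1.28 in control lungs (1.21 to 1.36) and 1.5 in knockout lungs (1.40 to 1.60), which is 1.17-fold higher (1.07 to 1.28). These 2 genes are neighbours on chromosome 7, with 96.6 kb between the end of Scnn1g (128878021 to 128911991) and the start of Scnn1b (129008625 to 129062030). Scnn1a lies apart from them, on chromosome 6 from 125271358 to 125294960.

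Atp1b1 was the abundant gene of the set with the largest difference. It encodes the beta 1 subunit, which brings the sodium pump to the membrane, and had 174 FPKM in control lungs and 136 in knockout lungs, 1.28-fold lower (1.23 to 1.33). Its rank among all genes went from 276 to 401. In the control pool its level could not be told from that of Aqp5, since their intervals overlapped (170 to 178 and 164 to 174 FPKM), whereas in knockout lungs it lay below Aqp5 (132 to 140 against 174 to 186 FPKM). Its transcript, on chromosome 1 from 166367398 to 166388486, overlaps the span of Nme7, at 15.4 and 14.7 FPKM. The sources used here do not say whether the libraries kept strand, so reads of the shared stretch cannot be assigned with certainty. The spans of the other 8 genes overlapped no other gene in the tables.

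The other beta subunit genes of the pump were higher in knockout lungs. Atp1b3, the gene of the beta 3 subunit, had 81 and 101 FPKM and was 1.24-fold higher (1.17 to 1.32). Atp1b2, the gene of the beta 2 subunit, had 3.97 and 6.92 FPKM and was 1.74-fold higher (1.45 to 2.11). The 3 beta genes summed to 259 FPKM in control lungs and 243 in knockout lungs. Atp1b1 took 67.2% of that sum in control lungs and 55.7% in knockout lungs, and Atp1b3 took 31.3% and 41.4%. The ratio of Atp1b3 to Atp1b1 was 0.466 in control lungs and 0.743 in knockout lungs, 1.59-fold higher (1.49 to 1.70). Of the make-ups compared within a library, that of the pump's beta subunits therefore differed more than those of the aquaporins or of ENaC.

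**Figure D2:**
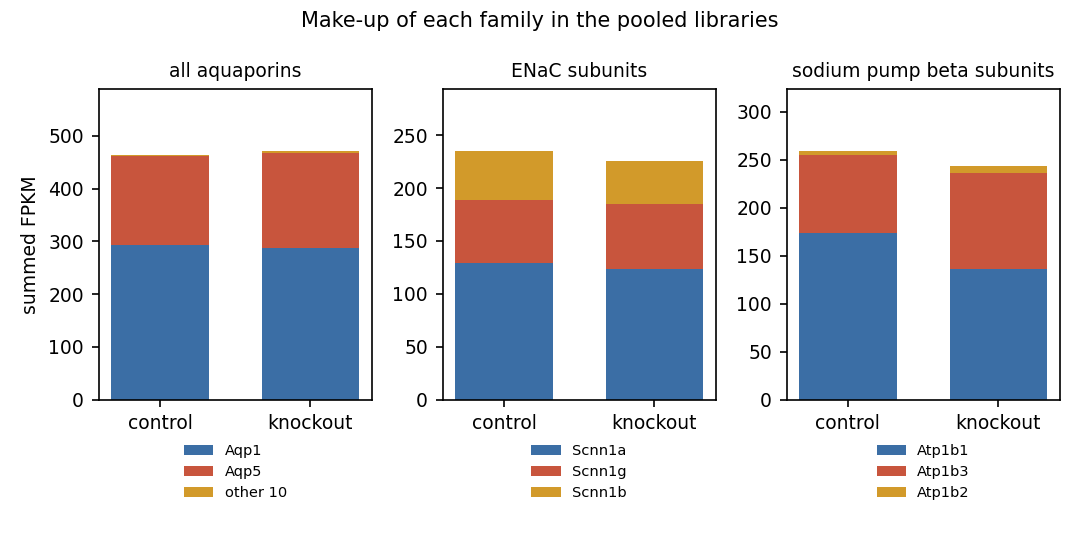
Summed FPKM of the 12 aquaporin genes, the 3 ENaC subunit genes and the 3 sodium pump beta subunit genes in each pooled library, with a linear axis from 0 for each family and colours for the genes. The Atp1b1 segment is shorter in knockout lungs (174 and 136 FPKM) and the Atp1b3 segment longer (81 and 101 FPKM), while the aquaporin and ENaC bars are nearly alike.

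Cftr, on chromosome 6 from 18120687 to 18272769, was low in whole lung. It had 2.19 FPKM in control lungs and 1.35 in knockout lungs, from about 233 and 111 reads, and was 1.62-fold lower (1.28 to 2.04). On the log2(FPKM + 1) scale its ratio was -0.44, short of a 1.5-fold difference. Scnn1a stood at 58.9 times Cftr in control lungs and at 91 times in knockout lungs. Among all genes over the floor the log2 ratio of Cftr was at percentile 8.07 and that of Atp1b1 at percentile 11.2, counted from the lowest.

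A further list of 60 symbols of genes that act on these channels and pumps, with older and newer names for 2 of them, had 58 entries in the tables, and 42 had a mean FPKM of 1 or more. Of the 42, 4 were higher in knockout lungs by 1.5-fold or more (9.52%) and 3 were lower by as much (7.14%). Among all genes the shares were 9.41% and 4.63%, so at this setting the 42 did not stand far from the background. Their median log2 ratio was -0.04. The 4 higher genes were Sgk1, Slc26a4, Fxyd5 and Atp1b2, and the 3 lower genes were Tsc22d3, Adrb1 and Prss8.

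Genes of hormone and ubiquitin control of ENaC lay on both sides of equality. Of 11 genes over the floor, 8 were below equality and 3 above, with a median log2 ratio of -0.36, beside 43.2% below and 56.8% above among all genes. The 3 above were Sgk1, Hsd11b1 and Nedd4, each with a counting interval above 1. The 8 below each had a counting interval below 1. Among all genes the interval lay above 1 for 33.6% and below 1 for 22.1%. Sgk1 encodes a kinase that keeps ENaC at the cell surface by acting on the ubiquitin ligase NEDD4-2. It had 50.8 FPKM in control lungs and 222 in knockout lungs, 4.37-fold higher (4.17 to 4.59). Of its 6 records, the most abundant transcript went from 40.5 to 200 FPKM and the next from 9.71 to 19.4 FPKM. Hsd11b1, for an enzyme that regenerates active glucocorticoid, had 155 and 199 FPKM and was 1.28-fold higher (1.22 to 1.34). Nedd4, for a ubiquitin ligase related to NEDD4-2, had 111 and 120 FPKM and was 1.08-fold higher (1.05 to 1.11). Nedd4l, the gene of NEDD4-2 itself, had 14.7 FPKM in control lungs and 11.6 in knockout lungs, 1.28-fold lower (1.19 to 1.37).

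Tsc22d3, the glucocorticoid-induced leucine zipper gene, had 180 FPKM in control lungs and 89.5 in knockout lungs, 2.01-fold lower (1.92 to 2.11). Sgk1 and Tsc22d3 are both known as genes induced by corticosteroids, and they differed in opposite directions between these libraries. Fkbp5, also known as such a gene, went the way of Tsc22d3, at 21.8 and 14.3 FPKM, 1.53-fold lower (1.39 to 1.68). On the log2(FPKM + 1) scale the Fkbp5 ratio was -0.578, just short of 1.5-fold. Adrb1, the gene of the beta 1 adrenergic receptor, had 16.7 and 8.66 FPKM, 1.92-fold lower (1.67 to 2.22). The mineralocorticoid receptor gene Nr3c2 had 1.91 and 1.16 FPKM and the glucocorticoid receptor gene Nr3c1 31.8 and 25.6 FPKM. Nr3c1, Nr3c2, Nedd4l and Fkbp5 were chosen after their values were seen.

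The proteases that cleave and activate ENaC, with their inhibitors, had 1 of 6 genes past 1.5-fold, beside 14.0% of all genes. The 1 gene was Prss8, which encodes the channel-activating protease prostasin. Prss8 had 39.8 FPKM in control lungs and 25 in knockout lungs, 1.59-fold lower (1.44 to 1.76). Its span overlaps that of Myst1, at 8.52 and 8.01 FPKM. Tmprss4, a membrane serine protease gene, was the highest of the list, at 7.42 and 9.70 FPKM, 1.31-fold higher (1.10 to 1.54). The most abundant was the protease inhibitor gene Spint2, at 135 and 126 FPKM.

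Among 10 subunits and FXYD regulators of the pump over the floor, 2 were past 1.5-fold, beside 14.0% of all genes. Both, Atp1b2 and Fxyd5, were higher in knockout lungs. Fxyd5, for the regulator also called dysadherin, had 47.1 FPKM in control lungs and 98.3 in knockout lungs, 2.08-fold higher (1.91 to 2.28). Fxyd3 was the lowest of the list, at 11.2 and 7.69 FPKM, 1.45-fold lower (1.04 to 2.09).

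Of 14 genes for chloride, bicarbonate and other ion transport over the floor, 1 was past 1.5-fold, beside 14.0% of all genes. Slc26a4, which encodes the anion exchanger pendrin, had 0.695 FPKM in control lungs and 4.38 in knockout lungs, from about 36 and 176 reads, 6.30-fold higher (4.42 to 9.37). Kcnq1, a potassium channel gene, had the lowest log2(FPKM + 1) ratio of the list, at 8 and 6.44 FPKM, 1.24-fold lower (1.06 to 1.46). The abundant genes of the list were the scaffold gene Slc9a3r2, at 212 and 206 FPKM, and the kinase gene Wnk1, at 40.7 and 38.3 FPKM.

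**Figure D3:**
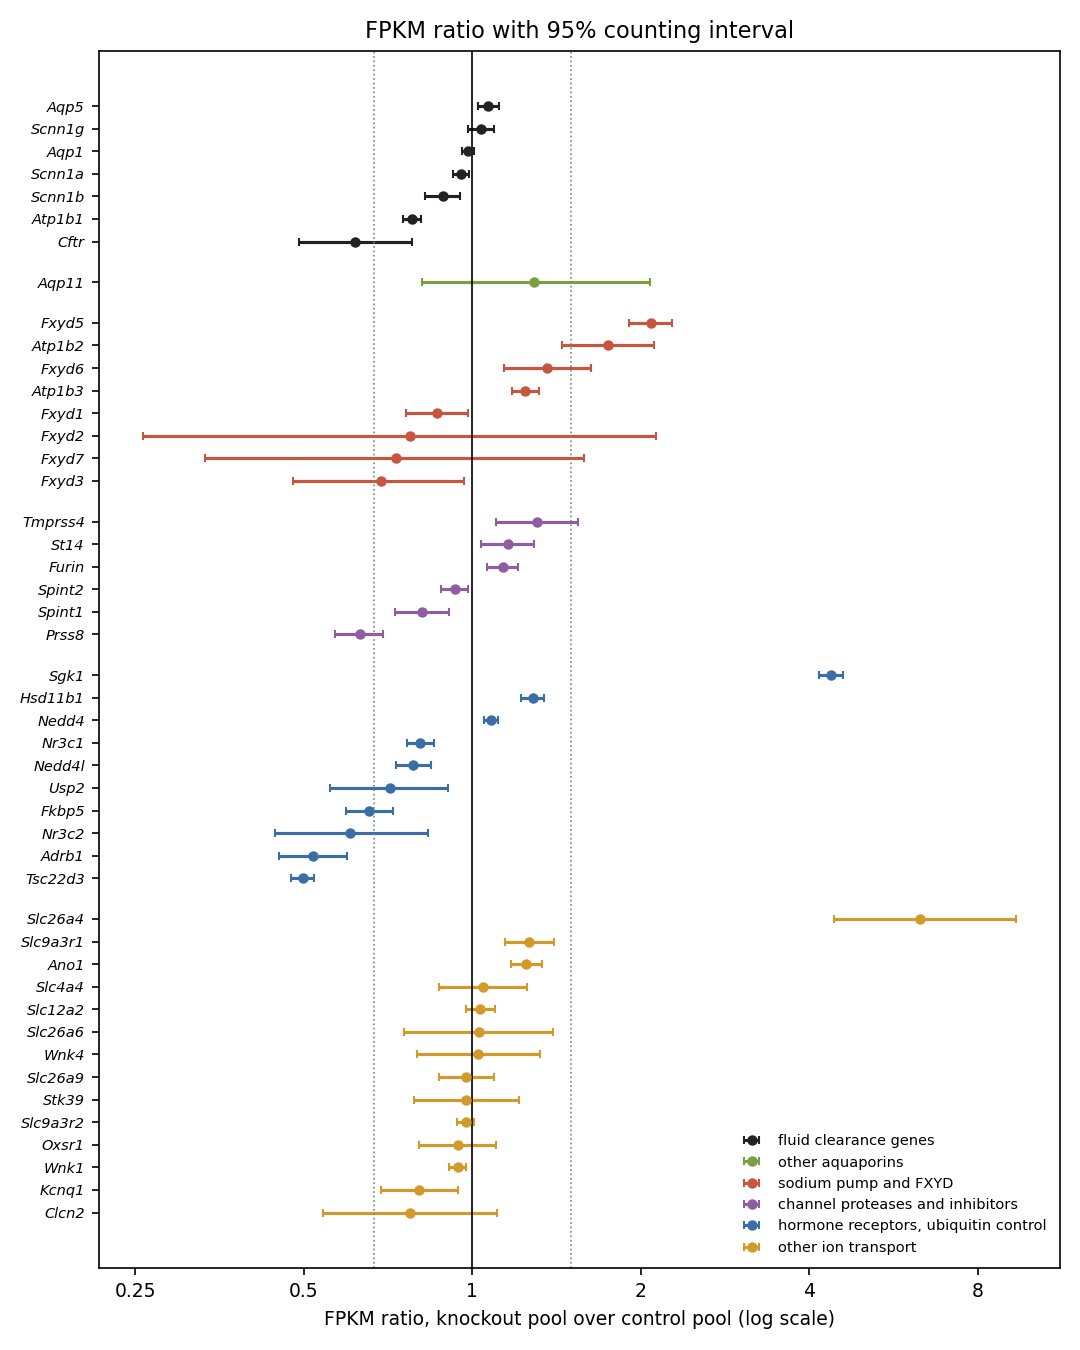
FPKM ratio, knockout pool over control pool (log axis), with its 95% counting interval for the 7 genes of the set and the further transport genes over the floor that are reported here, coloured by list. The solid line marks equality and the dotted lines a plain 1.5-fold ratio. Sgk1 (4.37) and Slc26a4 (6.30) stand far to the right, while the genes of the set lie between 0.618 and 1.07.

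Markers of the cell types that hold these channels differed between the pools beside the channels themselves. Among all genes over the floor, 9.41% were at least 1.5-fold higher in knockout lungs and 4.63% lower. These shares are the background for all marker counts below. Of 16 capillary endothelial markers, 10 were at least 1.5-fold lower in knockout lungs and 2 higher, with a median log2 ratio of -1.36 and a summed level of 2039 FPKM in control lungs and 911 in knockout lungs. Hpgd, a prostaglandin-degrading enzyme gene, was the lowest of them (364 and 51.7 FPKM), and the apelin receptor gene Aplnr the highest (15.5 and 30.9 FPKM). Cd36, the most abundant, had 403 and 194 FPKM. Aqp1, at a log2 ratio of -0.03, lay above the capillary median of -1.36. It lay close to the median of 15 pan-endothelial markers, -0.02, a list whose ratios ran from -1.60 to 2.32. Of these 15 markers, 4 were lower and 2 higher, with sums of 2311 and 2005 FPKM. On that list Emcn had the highest ratio (30 and 153 FPKM) and Calcrl the lowest (307 and 100 FPKM), while Ramp2 was the most abundant in control lungs (423 and 161 FPKM) and Egfl7 in knockout lungs (216 and 282 FPKM).

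AQP1 is also known from red blood cells and from mesothelium. Of 7 erythroid genes found, 5 were over the floor, with a summed level of 608 and 547 FPKM and a median log2 ratio of -0.24. That list held Hba-a1 at 393 and 376 FPKM and Hbb-b1 at 158 and 149 FPKM, while Hba-a2 and Hbb-b2 share near-identical sequence with other globin genes. The values of the globin genes are therefore uncertain, as are the sums and the median that include them. All 5 mesothelial genes lay above equality, with a median of 0.74 and sums of 137 and 223 FPKM. They ranged from Upk3b, at 26.2 and 34.3 FPKM, to Lrrn4, at 4.34 and 8.69 FPKM. Krt19, a keratin not confined to mesothelium, was the most abundant in both pools, at 80.2 and 136 FPKM, and made up most of both sums. Msln had 25.1 and 42.6 FPKM. The part of these cell types in the level of Aqp1 was not tested.

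Markers of alveolar type 1 and type 2 cells were set beside Aqp5 and ENaC. Alveolar type 1 markers had a median log2 ratio of -0.34 and sums of 3739 and 3111 FPKM. Of these 13 markers, 5 were at least 1.5-fold lower and 1 higher, beside 4.63% and 9.41% of all genes. Aqp5, at 0.09, lay above that median and close to that of the alveolar type 2 markers, 0.07. Cyp2b10 was the lowest of the list (197 and 83.2 FPKM), Igfbp2 the highest (183 and 317 FPKM), and Ager and Hopx the most abundant, the latter at 692 and 467 FPKM. Alveolar type 2 markers had a median of 0.07, with 0 of 13 lower and 2 higher and sums of 21431 and 19042 FPKM. On that list Sftpa1 was the lowest (1207 and 808 FPKM), Muc1 the highest (86.9 and 146 FPKM), and Sftpb followed Sftpc in abundance (1826 and 1593 FPKM). Sftpc made up most of both sums, which were lower in knockout lungs although the median was 0.07.

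Airway epithelium also holds some of these channels, and its markers lay on both sides of equality, mostly below it. Club cell markers were below equality for 7 of 8 genes and ciliated cell markers for 9 of 10. The airway basal genes, all under the floor, had at most about 12 reads each in control lungs and 14 in knockout lungs. The counting interval of each held equality, so their direction could not be told. Of 8 club cell markers 5 were at least 1.5-fold lower and 0 higher, beside 4.63% and 9.41% of all genes. The club cell list had a median of -0.73 and sums of 41129 and 25988 FPKM. Of 10 ciliated cell markers 2 were lower and 0 higher, with a median of -0.47 and sums of 724 and 439 FPKM. Cbr2 was the lowest club cell marker (3230 and 1461 FPKM), Hp the highest (402 and 455 FPKM) and Scgb1a1 the most abundant (35265 and 22774 FPKM). Of the ciliated markers Tppp3 was the lowest (192 and 95.2 FPKM), Tmem212 the highest (12.1 and 12.8 FPKM) and Sec14l3 the most abundant (445 and 279 FPKM). Scgb1a1 and Sec14l3 made up most of both sums of their lists. The part of these cell types in the values of the epithelial genes was not tested.

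**Figure D4:**
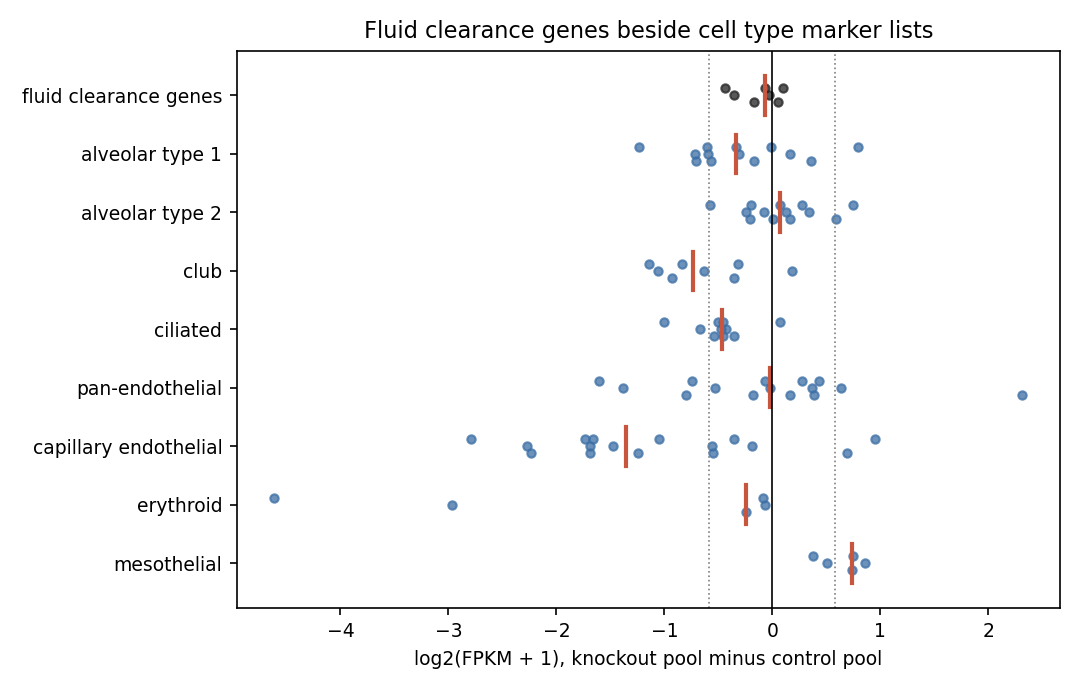
Difference of log2(FPKM + 1), knockout pool minus control pool, for the 7 genes of the set over the floor (black) and for markers of 8 cell types (blue), 1 point per gene, with a red bar at each list's median and dotted lines at 1.5-fold. The 7 genes span -0.44 to 0.09, inside the dotted lines, while capillary endothelial markers span -2.79 to 0.95.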

How the data were processed

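Per the series design text, RNA from the lungs of multiple mice went into 1 pool per genotype, and each pool gave 1 library. The authors deposited FPKM and, per the file headers, coverage (a signal of aligned bases per transcript base) for 28107 RefSeq transcript records in each library. The submitters' processing notes name the build mm9 and DESeq, without its role. The aligner and quantifier: not given in the sources used here. FPKM of all records of a gene symbol were summed. Reads were estimated as coverage times length, divided by the bases that 1 read adds (46.3 in the control library and 46.7 in the knockout library, from genes with very few reads). Counting intervals of ratios between libraries, and of ratios between genes in 1 library, are conditional (Clopper-Pearson) intervals. Intervals of single values are Poisson intervals, and those of the change in a within-library ratio use the normal approximation on the log scale. All use the estimated reads, rounded to whole numbers, so they are approximate. For genes with several records, intervals of ratios between libraries were rescaled to the ratio of summed FPKM. All cover counting error only, and the interval script was tested on simulated data. Ratios used a pseudocount of 1, a floor of a mean FPKM of 1 and a fold of 1.5. Starts are counted from 1. Python 3.11.15, pandas 2.3.3, numpy 2.4.6 and scipy 1.17.1 were used.

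The set, the 5 lists of transport genes and the 9 lists of cell type markers were chosen with earlier results of these data known. All genes of the set are named. A few genes of these lists count in the totals and are not reported here by name. From each transport list the text otherwise names the 2 most abundant, the highest, the lowest and every gene past 1.5-fold, and from each marker list the 2 most abundant, the highest and the lowest. Forkhead, GC and TATA motifs and the start regions shown were chosen after the values were seen. Other pseudocounts, floors, folds, scalings and transcript choices were tried.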

Additional observations from a re-analysis of the deposited data

How the results depend on the processing

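With 1 library per genotype, the depth limits Aqp3 and Aqp4, and no setting gives an error between mice. No paired analysis was possible because each genotype has 1 library. Of 72 recalculated log2 ratios of the 9 genes, under 8 other settings, 63 moved by little. That is, they moved by less than the distance from the middle of their log2 counting interval to its end. Scaling to a median log2 ratio of 0, to the upper quartile or to a trimmed mean lowered all knockout values by about 0.06 on the log2 scale. Aqp1 then stood at -0.0886, -0.0888 and -0.0889, Scnn1a at -0.128, -0.129 and -0.129, and Atp1b1 at -0.417, -0.417 and -0.417. Scnn1g changed sign under these 3 scalings. Relative to the median gene, the interval of Aqp5 held equality (0.979 to 1.07) and that of Aqp1 lay below it (0.916 to 0.965). With a pseudocount of 0.1, 1 gene of the set (Cftr) was at least 1.5-fold lower, and 6 of the further transport genes were lower in place of 3. That count was 5, 5 and 5 under the 3 scalings, 6 with TPM scaling, and 0 with a fold of 2, and the cause was not tested. The share of all genes called lower was not computed under these other settings, so these counts have no background beside them. The count of 4 higher transport genes stayed within 1.5 times of that number under each of these settings, as did every other count not named here.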
